A study of Mus musculus with 8 samples.

Results

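Ribosome footprints of METTL5 knockout (KO) mouse embryonic stem cells were compared with those of wild-type (WT) cells within replicate pairs. The members are the genes with at least 10 counts in all 4 Ribo-seq libraries, 11314 of the 23845 genes in each table, and the libraries are 4 of the 8 in the series. Both groups were mESC at passages 5 to 10, and the labels name genotype as their one difference. WT replicate 1 and KO replicate 1 carry the tag 11_25 in their deposited names and WT replicate 2 and KO replicate 2 the tag 12_3. The labels do not say what a tag stands for, whether it marks cells handled together, or how many KO clones were grown. The KO names carry C9, which the labels do not explain, so a p-value here covers only how far these libraries differ among themselves. The tag was entered in the model as a block, so that each KO library was set against the WT library of the same tag.

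METTL5 is a methyltransferase that works with the adaptor protein TRMT112. It places N6-methyladenosine on an adenosine of 18S rRNA near the decoding centre of the small ribosomal subunit. Ribo-seq counts the mRNA fragments that ribosomes protect from nuclease, here from the monoribosome fraction of a sucrose gradient per the labels, so a gene's footprints follow both the amount of its mRNA and the number of ribosomes on each mRNA. These cannot be told apart from footprints alone, nor can fewer cells of a type and less RNA per cell. The methylated stretch of the rRNA is shown because it is the substrate missing its enzyme in the KO, with the UAACA motif (T for U in DNA letters) in capitals, as read from the transcript Gm42418 at chr17:39848152-39848181 on the plus strand of GRCm38.
18S rRNA site: gtaaaagtcgTAACAaggtttccgtaggtg

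Total expected counts ranged from 8401460 to 11488000 per library. Levels are given as CPM, counts of a gene relative to the library total of the genes kept after TMM scaling, always with replicate 1 before replicate 2. Mettl5 itself, at chr2:69871195-69886634, had 41.1 and 45.6 CPM in WT and 3.995 and 4.98 CPM in KO. On the log2 scale the shift was -3.27 (SE 0.18, adjusted p = 4.12e-19, edgeR quasi-likelihood test with the block). Its exons overlap those of Ssb on the opposite strand over 17.5% of their length, and no source used here gives the strand setting of the counting. The stem cell markers were present in all 4 libraries. Pou5f1, the core pluripotency factor, stood at 711 and 632 CPM in WT and 877 and 783 CPM in KO (log2 difference 0.31, adjusted p = 0.094). Trmt112, the partner of METTL5, was at 168 and 120 CPM in WT and 168 and 119 CPM in KO (log2 difference -0.01, adjusted p = 0.965).

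Footprints on a large set of genes moved modestly and in the same direction in both pairs. Genes for ribosome assembly, nuclear transport and DNA replication were among those that fell, and genes of lysosomes, cell adhesion, the extracellular matrix and formative pluripotency were among those that rose. With the block, 2549 of 11314 genes passed an adjusted p of 0.05 (22.5%), of which 1337 were higher (11.8%) and 1212 lower (10.7%) in KO. Without the block, 231 passed (2.04%), 171 higher and 60 lower, and 2112 had an unadjusted p under 0.05. Both fits shared 229 of these, so 2320 genes (20.5%) were called only when the pairs were kept together. Of the 2320, 1167 were higher and 1153 lower, their median absolute log2 fold change was 0.57 (1.48-fold), and 2091 changed by less than 2-fold. The genes called in both fits had a median of 1.33.

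How many genes pass depends on the tool. DESeq2 with the same block called 601 genes, 597 of them shared with the 2549, and 331 without the block. limma-voom called 2492 with and 234 without it. All 2549 genes had the same sign in DESeq2, which used the same 4 libraries and so is no separate check of direction. With 4 libraries the blocked model has 1 residual degree of freedom per gene, so nearly all of its precision is borrowed across genes. The prior degrees of freedom, which set the weight of that borrowing, had a median of 47.1 with the block and 7.22 without it. The fits with and without the block thus differ in this as well as in the pairing. Genes called only with the block had a median SE of 0.148 with it and 0.205 without it. A library cannot be left out of a blocked fit of 4. In fits on genotype alone, 383 genes passed without WT replicate 1, 428 without WT replicate 2, 186 without KO replicate 1 and 188 without KO replicate 2.

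Each pair taken by itself shows the agreement directly. All 2549 called genes had the same sign in both pairs, which the test in part selects for. Among the other genes kept the share was 63.7%, and over all genes kept it was 71.8%. KO-minus-WT differences in log2 CPM correlated between the pairs by 0.64 (Pearson) and 0.59 (Spearman) across genes, which are not independent replicates. In both pairs 1779 genes were more than 1.2-fold higher and 1499 more than 1.2-fold lower, while 388 passed that limit in opposite directions. The replicates of a genotype also differed from each other in a shared way. Deviations from the group mean correlated by 0.47 between same-numbered WT and KO libraries, and the median absolute difference between replicates was 0.25 log2 units in WT and 0.21 in KO. The common dispersion, the squared relative spread between libraries, was 0.0081 with the block and 0.026 without it.

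**Figure D1:**
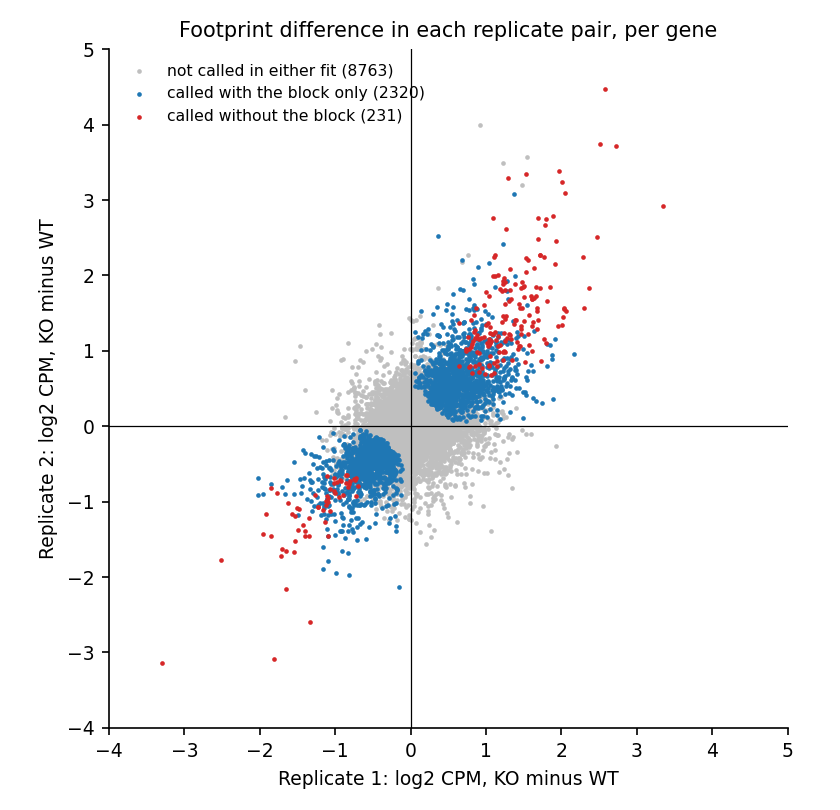
Each point is a gene kept, with the KO-minus-WT difference in log2 CPM in replicate 1 on the x axis and in replicate 2 on the y axis. The 2320 genes called with the block only (blue) lie in the 2 corners where both pairs share a sign, mostly nearer the origin than the 231 called without the block (red).

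Dppa3, a maternal factor and marker of naive stem cells on chromosome 6, illustrates what pairing changes. It had 95.6 and 145 CPM in WT and 44.4 and 74.3 CPM in KO. Replicate 2 was the higher library in both genotypes, and the KO library lay lower within each pair, by 1.10 and 0.96 log2 units. The adjusted p was 4.30e-10 with the block and 0.109 without it (edgeR). Myc, the growth-promoting transcription factor, had 153 and 76.7 CPM in WT and 86.4 and 60.8 CPM in KO. The WT and KO ranges overlap, but both pairs fell (log2 shift of -0.59, SE 0.12, adjusted p = 0.000194 with and 0.341 without the block, edgeR).

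Among genes with many footprints, those called lower in KO outnumbered those called higher. Of 1697 genes with a mean of at least 100 CPM, 503 were called, 172 higher and 331 lower, against 33 without the block. The 470 called only with the block were part of the 2091 small shifts gained with the block at all levels. All 470 changed by less than 2-fold, with 150 higher and 320 lower. Their median absolute log2 fold change was 0.43 (1.35-fold), and 394 were under 1.5-fold. Their smallest called shift was 0.27. In both pairs, 138 of the 1697 were more than 1.2-fold higher and 284 more than 1.2-fold lower, and 11 went opposite ways. Upper quartile scaling kept 407 of the 470 calls and DESeq2 184. A test against a 1.2-fold change kept 132.

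Across quintiles of mean CPM the share called with the block went from 13.1% in the lowest to 30.2% in the highest, while without the block it stayed between 1.10% and 2.48%. The direction turned with abundance. In the lowest quintile 8.53% of genes were called higher and 4.55% lower, and in the highest 10.6% were called higher and 19.6% lower. The median absolute shift of called genes fell from 1.05 to 0.44 log2 units over the same range. More counts give more power at a given fold, so the shares called do not compare how many genes shifted. The median of all genes was 0.08 in the lowest and -0.08 in the highest quintile, and in the highest it was negative in both pairs (-0.11 and -0.06).

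**Figure D2:**
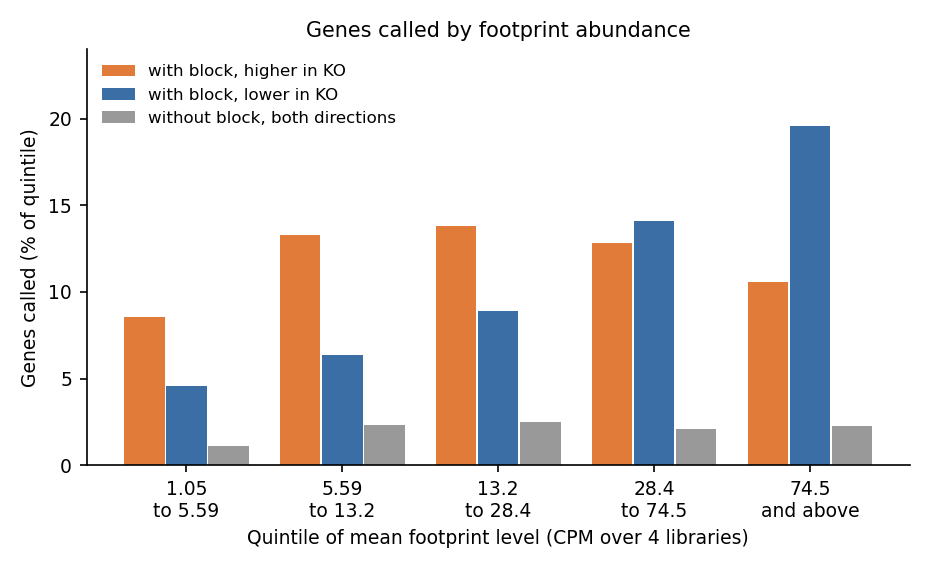
Bars give the percentage of genes called in each quintile of mean footprint level (x axis, CPM), higher (orange) or lower (blue) in KO with the block, and in either direction without it (grey). Lower calls rise from 4.55% to 19.6% with abundance, and the grey bars reach at most 2.48%.

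The 8 increases with the smallest p among abundant genes called only with the block included cell surface and secreted proteins. A microtubule protein and a mitochondrial one were also among them. Lrp1, an endocytic lipoprotein receptor (chr10:127538157-127621148), had 73.6 and 113 CPM in WT and 163 and 195 CPM in KO. Epcam, the epithelial cell adhesion molecule of stem cells (chr17:87635979-87651127), had 160 and 231 CPM in WT and 331 and 404 CPM in KO. Both KO libraries exceeded both WT libraries for each gene, although replicate 2 ran higher in both genotypes. The log2 fold change was 0.97 for Lrp1 (SE 0.11, adjusted p = 2.80e-09 with and 0.0613 without the block, edgeR) and 0.93 for Epcam (SE 0.11, adjusted p = 1.87e-08 and 0.0605).

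Mdk, the secreted growth factor midkine, had 130 and 89.7 CPM in WT and 204 and 159 CPM in KO (0.74). Here replicate 1 was the higher library in both genotypes, and the KO rose over its own partner each time. Map1b, a microtubule-associated protein, had 79.7 and 98.5 CPM in WT and 153 and 148 CPM in KO (0.76). Cox8a, a small subunit of cytochrome c oxidase, had 170 and 227 CPM in WT and 293 and 366 CPM in KO (0.74). The other 3 of the 8 were Bcam, a laminin receptor of the immunoglobulin family (0.70), Pvrl2, the adhesion molecule nectin-2 (0.65), and Sulf2, an extracellular enzyme that trims heparan sulfate (0.65). In all 8, both KO libraries lay above both WT libraries, as for 25.2% of all genes kept (49.8% of genes had libraries that did not overlap in either direction).

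The decreases with the smallest p came largely from chromosome 6. Lsm3, a subunit of the ring that binds U6 snRNA (chr6:91516035-91522620), had 116 and 175 CPM in WT and 61.7 and 97.1 CPM in KO (log2 shift of -0.88, SE 0.11, adjusted p = 1.24e-08 with and 0.129 without the block, edgeR). Mat2a, which makes the methyl donor S-adenosylmethionine (chr6:72432796-72439556), had 465 and 232 CPM in WT and 207 and 139 CPM in KO (-0.96, SE 0.12, adjusted p = 2.84e-08 and 0.171). WT replicate 1 of Mat2a was far above WT replicate 2, and each KO library still lay below its partner. Tfpi, an inhibitor of blood coagulation on chromosome 2, had 125 and 180 CPM in WT and 72.9 and 99.1 CPM in KO (-0.82).

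Bzw1, a mimic of initiation factor eIF5 on chromosome 1, had 224 and 183 CPM in WT and 131 and 104 CPM in KO (-0.80). Rhox5, a reproductive homeobox gene of the X chromosome, had 151 and 156 CPM in WT and 79.6 and 103 CPM in KO (-0.76), and reads of related Rhox genes may be shared in the estimate. Thumpd3, a tRNA guanosine methyltransferase (-0.76), Strap, a WD-repeat protein of the SMN complex (-0.70), and Ddx47, an RNA helicase of ribosome assembly (-0.71), completed the 8, and all 3 lie on chromosome 6. With the median of each chromosome removed, Lsm3 stood at -0.50, Mat2a at -0.57, Thumpd3 at -0.38, Strap at -0.32 and Ddx47 at -0.33, and all 5 still passed.

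**Figure D3:**
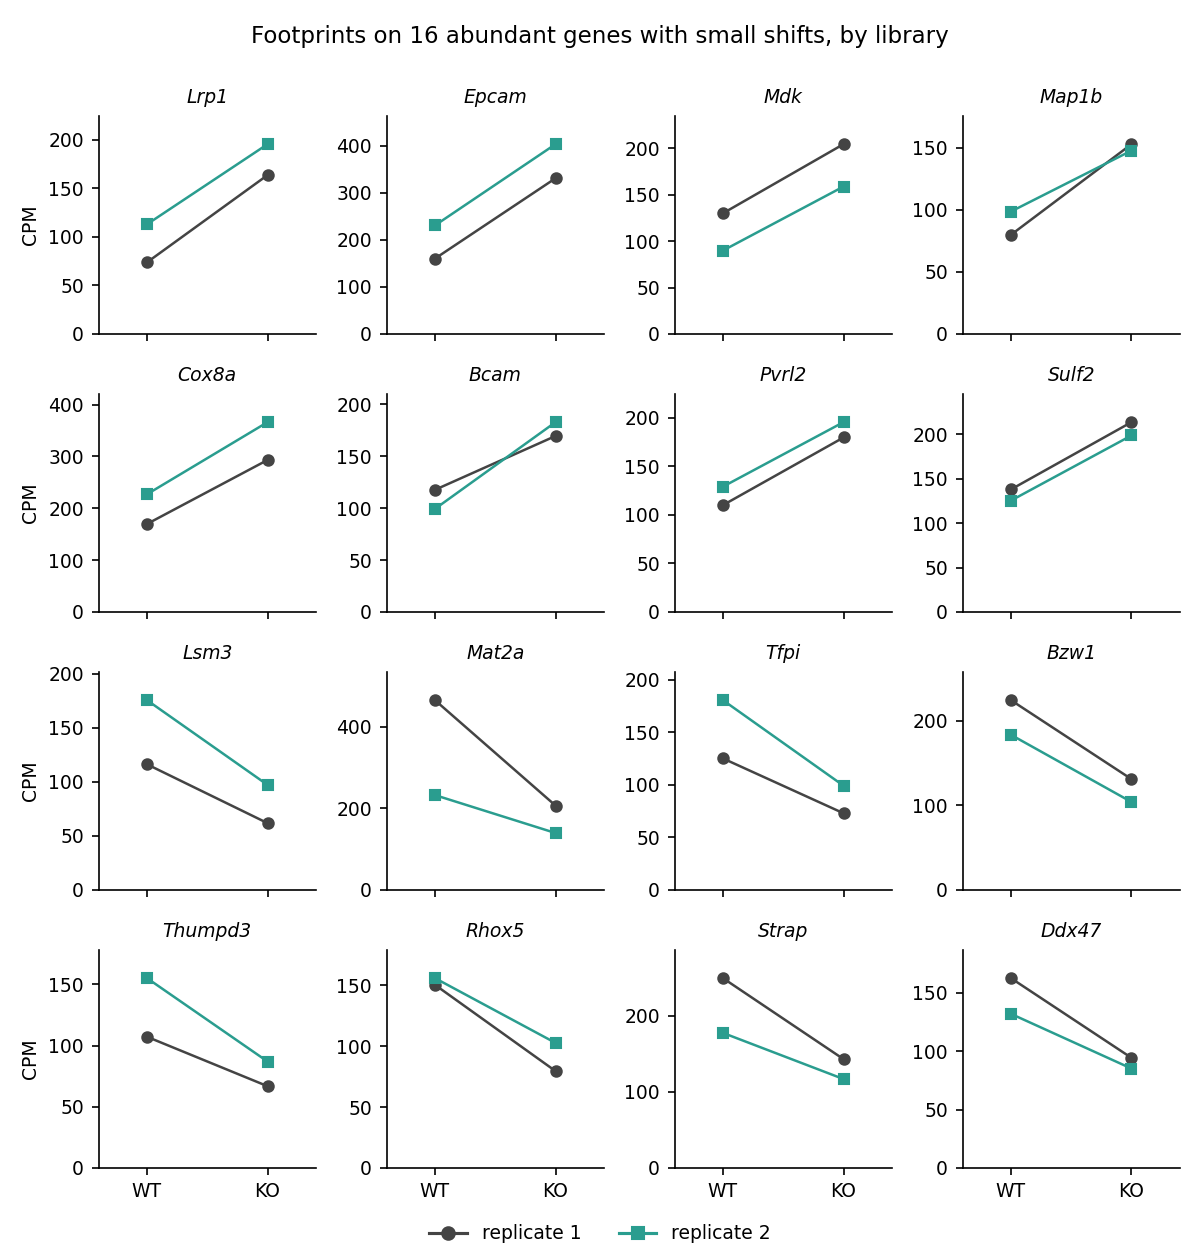
Each panel shows 1 gene, with CPM on a linear axis from 0 and lines joining the WT and KO libraries of replicate 1 (dark circles) and replicate 2 (green squares). Lines run nearly parallel for Mdk and Cox8a although their starting levels differ. In all 16 panels both lines go the same way, which the choice of these genes required.

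Of genes called only with the block, those with the highest levels moved by 1.34-fold to 1.69-fold. Fn1, the matrix protein fibronectin, had 1765 and 1663 CPM in WT and 2554 and 2555 CPM in KO (log2 shift of 0.58, SE 0.16, adjusted p = 0.00637, edgeR). Fn1 is on the fibroblast marker list, whose levels are given further on. Atp5a1, the alpha subunit of ATP synthase, had 2378 and 2258 CPM in WT and 3263 and 3056 CPM in KO (0.45). Mif, a cytokine with tautomerase activity, had 1305 and 1120 CPM in WT and 1786 and 1567 CPM in KO (0.47). In Fn1, Atp5a1 and Mif the genotypes were well separated and the pairs close to each other. The SE with and without the block was 0.160 and 0.160 for Fn1, 0.166 and 0.163 for Atp5a1, and 0.150 and 0.171 for Mif. With the median of each chromosome removed Atp5a1 stood at 0.38 (adjusted p = 0.104, edgeR) and Mif at 0.39 (0.0612), and neither passed.

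Dppa5a, an RNA-binding protein of pluripotent cells, had 1739 and 2974 CPM in WT and 2920 and 3446 CPM in KO (0.48, adjusted p = 0.0376, edgeR). The WT and KO ranges overlap, and the pairs differed by 0.75 and 0.21. Eno1, the glycolytic enzyme enolase, had 1555 and 1598 CPM in WT and 2421 and 1853 CPM in KO (0.43, adjusted p = 0.0466), and DESeq2 did not call it. Dppa5a, with chromosome medians removed, stood at 0.43 (adjusted p = 0.0728, edgeR) and Eno1 at 0.39 (0.0809). Hist1h4j, one of many near-identical histone H4 genes, had 1779 and 241 CPM in WT and 2403 and 517 CPM in KO (0.76). It is uncertain, since reads are split among copies, replicates differed several-fold, DESeq2 did not call it, and its sign turned to -0.28 with WT replicate 2 left out and -0.96 with KO replicate 1 left out.

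All 6 of the most abundant decreases lie on chromosomes 6 or 11. Hspa4, a co-chaperone of HSP70, had 2217 and 1916 CPM in WT and 1428 and 1415 CPM in KO (log2 shift of -0.54, SE 0.16, adjusted p = 0.00893, edgeR). Kpnb1, the nuclear import receptor importin beta, had 1716 and 1793 CPM in WT and 1121 and 1267 CPM in KO (-0.56). Rpl32, a protein of the large ribosomal subunit, had 1868 and 1673 CPM in WT and 1152 and 1340 CPM in KO (-0.51). In each the KO libraries lay wholly below the WT libraries, as for 24.6% of all genes kept. Hnrnpa2b1, an RNA-binding protein that reads N6-methyladenosine (-0.44), Serbp1, an mRNA-binding protein found on ribosomes (-0.48), and Cltc, the clathrin heavy chain (-0.42), were the others. None of the 6 passed with chromosome medians removed, where they ranged from -0.05 for Hnrnpa2b1 to -0.32 for Kpnb1.

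Genes on chromosomes 6, 8 and 11 were lower in KO as whole chromosomes in both pairs. They hold 18.7% of the genes kept and 54.4% of those called lower, 659 of 1212. On them 31.1% of genes were called lower and 4.25% higher, and elsewhere 6.01% were called lower and 13.6% higher. The median log2 difference in replicate 1 and replicate 2 was -0.37 and -0.38 on chromosome 6, -0.21 and -0.23 on chromosome 8, and -0.26 and -0.21 on chromosome 11. The other chromosomes had medians between -0.04 and 0.11 in the pairs. Windows of 10 Mb showed the same along the length of each, with 12 of 12 negative in both pairs on chromosome 6, on chromosome 8 and on chromosome 11. Of the 320 abundant genes that fell by a small amount, 184 (57.5%) lie on these 3 chromosomes.

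Removing each chromosome's median left 2110 genes called, 1192 higher (10.5%) and 918 lower (8.11%), and 1780 of them were among the 2549. Of the 470 abundant genes, 272 remained called. Since this step also removes true differences that many genes of a chromosome share, the second value is given for each named gene that no longer passed. The shift of chromosomes 6, 8 and 11 was not compared with DNA content here, and its part in the gene lists is given by counts only.

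**Figure D4:**
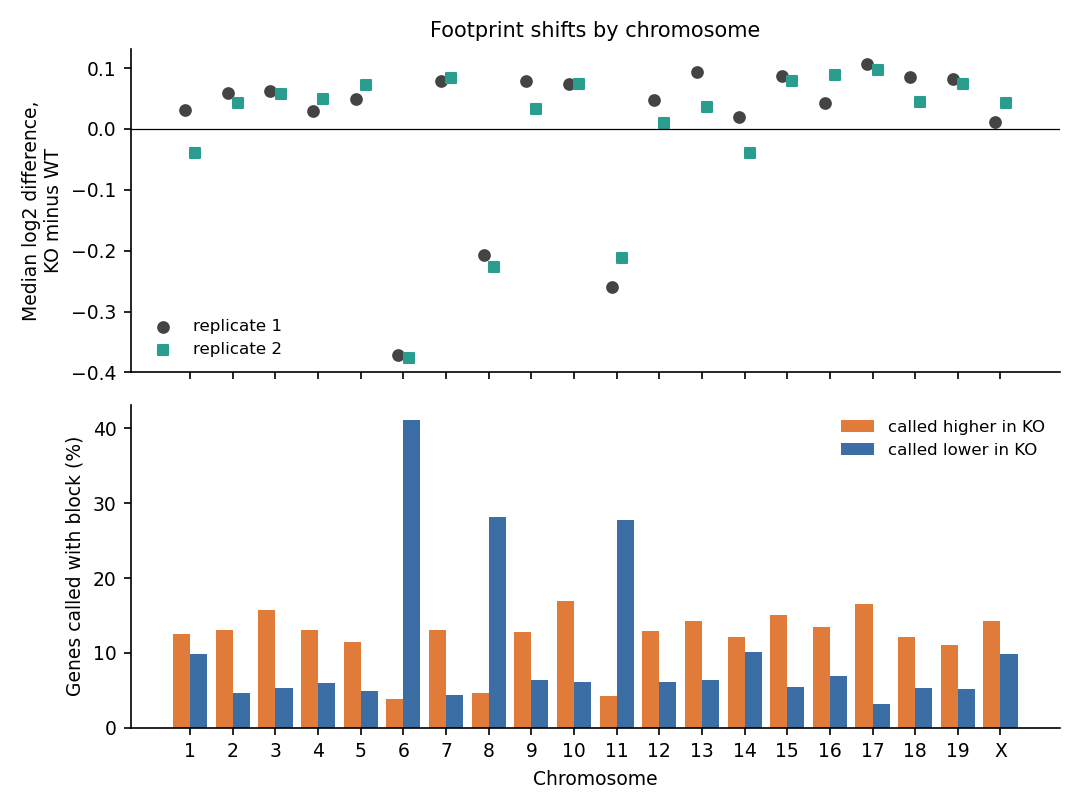
The upper panel gives the median log2 difference, KO minus WT, of the genes on each chromosome in replicate 1 (dark circles) and replicate 2 (green squares), and the lower panel the percentage of genes called higher (orange) or lower (blue) with the block. Chromosomes 6, 8 and 11 lie at -0.21 or lower in both pairs and have the highest shares of lower calls, 41.1%, 28.2% and 27.7%.

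The members were also grouped into 38 gene lists, for which the counts of all genes kept, 11.8% higher and 10.7% lower with a median of 0.01, serve as background. The list medians are descriptions, and no list was tested as a set. In fits on genotype alone without 1 library, at most 10 members of a list passed in a direction, so list medians without a library are given in place of counts. Medians changed sign in 6 of the 38 lists without WT replicate 1, 6 without WT replicate 2, 4 without KO replicate 1 and 7 without KO replicate 2, nearly all of them small medians.

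Genes that build ribosomes had fewer footprints. Of 91 ribosome biogenesis factors kept, 31 fell and none rose, 82 had negative fold changes, and the median was -0.22 (-0.33 in replicate 1 and -0.15 in replicate 2). Bms1, a GTPase of the small subunit processome (chr6:118383381-118419802), had 298 and 286 CPM in WT and 147 and 157 CPM in KO (log2 shift of -0.94, SE 0.11, adjusted p = 2.80e-09, edgeR). Utp6, another processome protein, had 281 and 286 CPM in WT and 166 and 194 CPM in KO (-0.66). Polr1a, the largest subunit of RNA polymerase I, which transcribes the rRNA precursor, had 326 and 236 CPM in WT and 176 and 170 CPM in KO (-0.68), and Nob1, the nuclease that completes the 3' end of 18S rRNA, fell by 0.61.

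In these 4 genes both KO libraries lay below both WT libraries, as for 24.6% of all genes kept. Of the 31 that fell, 18 lie on chromosomes 6, 8 and 11, among them these 4, and 13 of 70 members elsewhere fell (18.6%, against 6.01% of all genes elsewhere). With chromosome medians removed 29 fell, with a median of -0.24. Bms1, Utp6 and Nob1 still passed at -0.56, -0.42 and -0.39, and Polr1a did not (-0.30, adjusted p = 0.0556, edgeR). DESeq2 called 12 of the list, all lower. The median moved to -0.12 without WT replicate 1 and -0.35 without WT replicate 2, and without the block 1 member was called.

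Of the enzymes that modify rRNA and tRNA few were called. Of 29 kept, 4 fell and none rose, namely Mettl5, Thumpd3, the 28S rRNA methyltransferase Nop2 (407 and 302 CPM in WT, 237 and 203 CPM in KO, -0.68) and the 18S pseudouridine methyltransferase Emg1 (-0.50). The last 3 lie on chromosome 6, and away from chromosomes 6, 8 and 11 the knocked-out gene was the only one of 23 called (4.35%, against 6.01% of all genes there). Nop2, with chromosome medians removed, stood at -0.29 (adjusted p = 0.06, edgeR) and Emg1 at -0.11 (0.501). The list's median of -0.12 turned to 0.01 without WT replicate 1 and was -0.24 without WT replicate 2.

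Ribosomal proteins themselves did not share a shift. Of 33 proteins of the small subunit 3 rose and 1 fell, and the median was -0.04 in replicate 1 and 0.31 in replicate 2. Of 49 proteins of the large subunit 2 rose and 2 fell, and the medians were -0.20 and 0.20. The pairs disagreed in sign for 21 of the 33 and 32 of the 49. In both pairs 10 small subunit and 10 large subunit proteins were positive, and those called higher were Rps28 (389 and 424 CPM in WT, 508 and 634 CPM in KO, 0.48), Rps29 (0.50), Rps21 (0.43), Rplp1 (0.42) and Rpl35a (0.42, and 0.35 with an adjusted p of 0.0607 with chromosome medians removed, edgeR). The median of the small subunit proteins, 0.12, turned to -0.09 without WT replicate 2, and that of the large subunit proteins, 0.02, to -0.13. Rpl22l1, a variant of the large subunit protein RPL22, fell (464 and 403 CPM in WT, 274 and 330 CPM in KO, -0.52), as did Rpl32 and Rps15a. Reads shared with processed pseudogenes make ribosomal protein estimates uncertain.

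Translation initiation factors leaned lower. Of 42 kept, 8 fell and 2 rose, and 33 had negative fold changes (median -0.15). Eif5b, the GTPase that joins the ribosomal subunits, had 338 and 365 CPM in WT and 214 and 243 CPM in KO (-0.62, SE 0.11, adjusted p = 4.25e-05, edgeR), with 15.9% of its exon length overlapped by Rev1 on the other strand. Eif2s1 and Eif2s2, the alpha and beta subunits of the factor that brings the initiator tRNA, fell by 0.38 and 0.38. Denr, which helps reinitiation and 40S recycling, fell by 0.43. The members that rose were Eif4g3, a scaffold of the cap-binding complex (0.74), and Eif4ebp2, a repressor of that complex (0.50). Only 1 of the 8 lies on chromosomes 6, 8 and 11, and 10 fell with chromosome medians removed. DESeq2 called 2 lower, and upper quartile scaling 4. The median was -0.08 without WT replicate 1.

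Among 23 elongation, termination and recycling factors, Abce1, the ATPase that splits ribosomes after termination, fell (385 and 437 CPM in WT, 270 and 297 CPM in KO, -0.54), and Eef2k, the kinase that inhibits elongation factor 2, rose (13.9 and 18.4 CPM in WT, 29.8 and 24.4 CPM in KO, 0.75). Abce1 lies on chromosome 8 and stood at -0.31 with chromosome medians removed (adjusted p = 0.0581, edgeR). Of 22 cytosolic aminoacyl-tRNA synthetases, which charge tRNAs, Kars (-0.41) and Dars (-0.30) fell and Mars (0.32) rose. Kars, on chromosome 8, stood at -0.18 with chromosome medians removed (adjusted p = 0.33, edgeR) and Mars at 0.23 (0.124).

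Of 77 mitochondrial ribosomal proteins 13 fell and 1 rose, but 10 of the 13 lie on chromosomes 6, 8 and 11, and away from them 3 of 58 fell (5.17%). The list's median was -0.19 in replicate 1 and -0.01 in replicate 2, and between -0.05 and -0.19 without 1 library. Mrps35 had 124 and 100 CPM in WT and 64.2 and 61.5 CPM in KO (-0.83), and Mrpl19 fell by 0.85. Mrpl19 and Mrps25 overlap genes on the other strand over 39.2% and 58.2% of their exon length, which makes their counts uncertain.

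Part of the nuclear transport machinery and of the nuclear pore fell. Of 41 kept, 13 fell and none rose, 35 had negative fold changes, and the median was -0.24 (-0.26 and -0.21 in the pairs). Xpo1, the main exporter of proteins and ribosomal subunits, had 595 and 710 CPM in WT and 399 and 483 CPM in KO (-0.57, SE 0.13, adjusted p = 0.000791, edgeR). Nup85, a scaffold protein of the pore, had 217 and 233 CPM in WT and 153 and 150 CPM in KO (-0.57). Kpna2, an importin alpha, fell by 0.39, and Tnpo3, the importer of SR proteins, by 0.44. No KO library of these 4 reached the lower WT library, as for 24.6% of all genes kept. Of the 13 that fell, 8 lie on chromosomes 6, 8 and 11, and 5 of 30 others fell (16.7%). With chromosome medians removed 10 fell and 1 rose, and the median stayed at -0.24. The 4 named members lie on chromosomes 6 and 11, and of them Nup85 alone still passed (-0.33), while Xpo1 stood at -0.33 (adjusted p = 0.0639, edgeR), Kpna2 at -0.15 (0.498) and Tnpo3 at -0.06 (0.769). DESeq2 called 4 and the fit without the block none.

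Part of the DNA replication machinery fell as well. Of 45 kept, 16 fell and none rose (median -0.23, and -0.23 and -0.22 in the pairs). Rpa3 and Rpa1, subunits of the single-strand binding protein, fell by 0.95 and 0.52. Rpa1 had 638 and 694 CPM in WT and 424 and 506 CPM in KO. Cdc6, a licensing factor, had 189 and 144 CPM in WT and 113 and 99.6 CPM in KO (-0.64), and Mcm2, a subunit of the replicative helicase, fell by 0.40. Of the 16, 9 lie on chromosomes 6, 8 and 11, and 7 of 33 others fell (21.2%). With chromosome medians removed 10 fell, and neither Mcm2 on chromosome 6 (-0.02, adjusted p = 0.944, edgeR) nor Rpa1 on chromosome 11 (-0.28, adjusted p = 0.121) passed. DESeq2 called 3.

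Genes of G2 and mitosis gave 7 lower and none higher of 41 (median -0.09, and -0.05 without WT replicate 2). Of the 7, 4 lie on chromosomes 6, 8 and 11, and 3 of 36 members elsewhere fell (8.33%, against 6.01% of all genes elsewhere). With chromosome medians removed 5 fell and 1 rose. Mad2l1, a spindle checkpoint protein on chromosome 6, had 134 and 116 CPM in WT and 76.1 and 68.5 CPM in KO (-0.79, and -0.41 with chromosome medians removed). Top2a, the topoisomerase of mitotic chromosomes, had 1134 and 1262 CPM in WT and 778 and 940 CPM in KO (-0.48). Top2a lies on chromosome 11 and stood at -0.24 with chromosome medians removed (adjusted p = 0.237, edgeR). Cenpf, a kinetochore protein, had 178 and 226 CPM in WT and 134 and 178 CPM in KO. The genotypes of Cenpf touch at 178 CPM, yet the pairs fell by 0.41 and 0.34 (-0.38, adjusted p = 0.0057 with and 0.342 without the block, edgeR).

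Few genes of protein folding and degradation were called. Of 25 cytosolic chaperones 5 fell and 1 rose, all 5 on chromosomes 6, 8 and 11, and 1 fell after chromosome medians were removed. Cct7, a subunit of the chaperonin that folds actin and tubulin, had 1108 and 976 CPM in WT and 724 and 699 CPM in KO (-0.55). Its value was -0.16 with the medians removed (adjusted p = 0.444, edgeR). Of 39 proteasome subunits 4 fell and none rose, with 34 negative (median -0.15). Psmc5 (-0.50), Psmd12 (-0.47) and the activator Psme3 (-0.45) lie on chromosome 11 and did not pass with chromosome medians removed (-0.26, -0.23 and -0.21). In that fit 5 subunits of the list fell, and its median was -0.15. Of 25 genes of the endoplasmic reticulum and its stress response, the transcription factor Xbp1 (-0.42) and the translocon subunit Sec61a1 (-0.40) fell, and neither passed with the medians removed (-0.18 and -0.02).

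**Figure D5:**
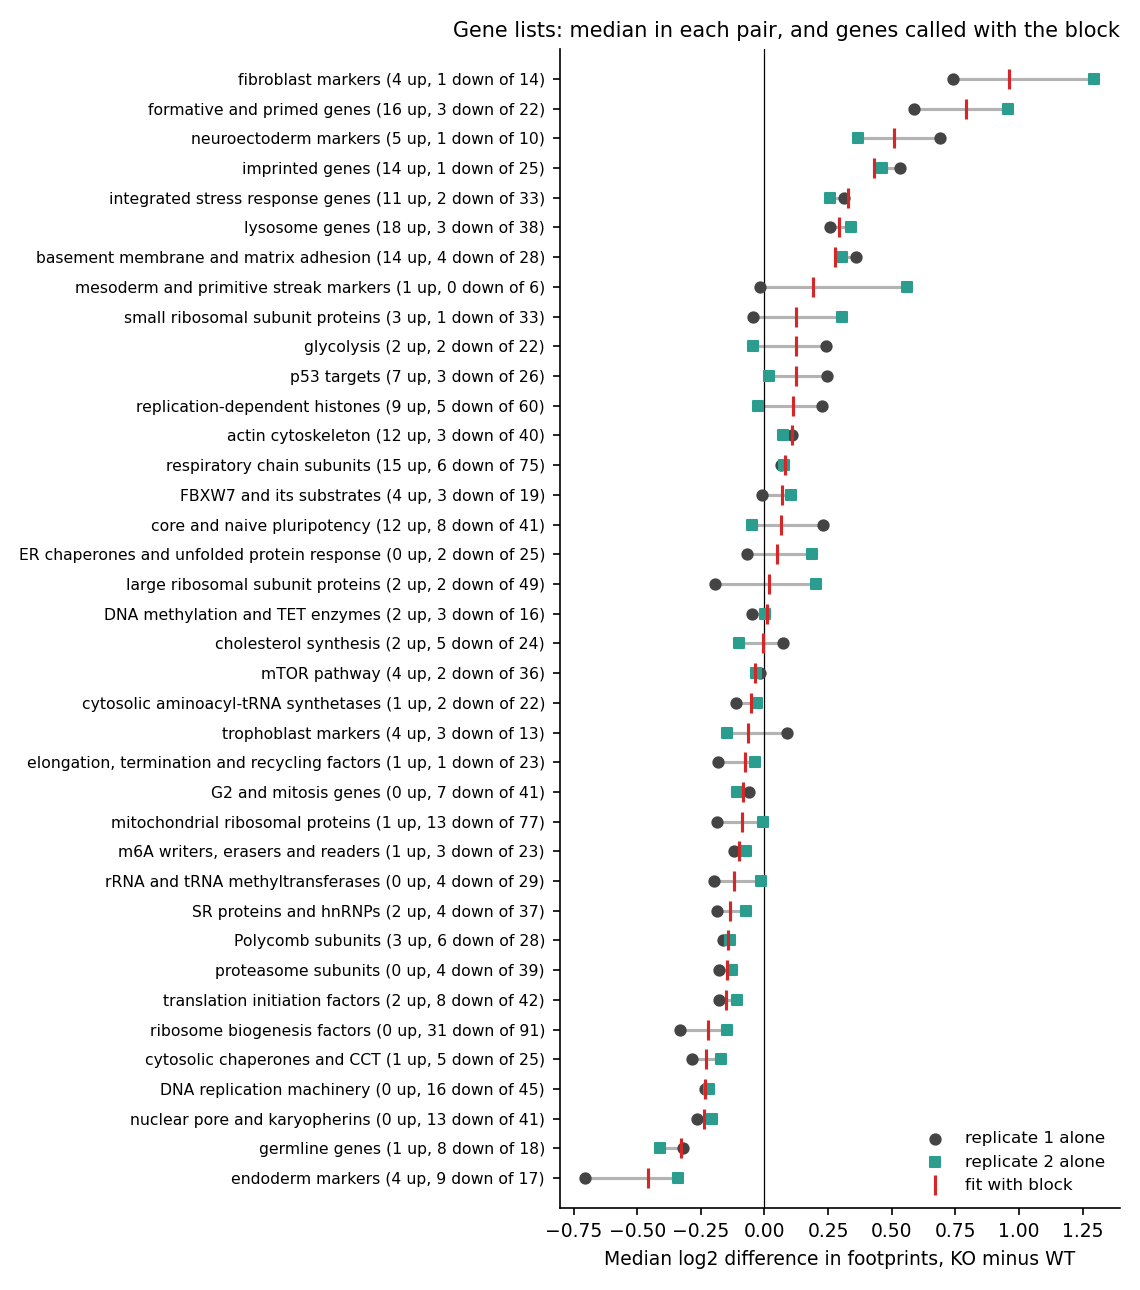
Points give the median KO-minus-WT log2 difference of each gene list in replicate 1 (dark circles) and replicate 2 (green squares), the red tick the median of the fit with the block, and the labels how many of the members kept were called higher or lower. Both pairs lie below 0 for ribosome biogenesis, nuclear pore and DNA replication and above 0 for lysosome, formative and imprinted genes, while the ribosomal proteins lie on opposite sides.

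Lysosomal genes were among those that rose. Of 38 kept, 18 rose and 3 fell, 30 had positive fold changes, and the median was 0.29 (0.26 and 0.34 in the pairs). Without the block 1 was called. Laptm4b, a lysosomal membrane protein, had 58.5 and 66.7 CPM in WT and 139 and 146 CPM in KO (log2 shift of 1.19, SE 0.11, adjusted p = 6.53e-12, edgeR). Lamp2, a major glycoprotein of the lysosomal membrane, had 31.9 and 53.7 CPM in WT and 60.0 and 79.6 CPM in KO (0.73). The hydrolases Glb1 (0.63) and Hexa (0.67) rose, and so did Tfeb, a transcription factor that drives lysosomal genes (17.4 and 20.8 CPM in WT, 30.6 and 29.0 CPM in KO, 0.64).

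Replicate 2 was higher than replicate 1 in both genotypes for Lamp2, and lower for Glb1 and Hexa. Members that fell included the protease Ctsh (-1.30) and the proton pump subunit Atp6v1b2 (-0.30). Atp6v1b2, on chromosome 8, stood at -0.07 with chromosome medians removed (adjusted p = 0.71, edgeR). DESeq2 called 3 higher and none lower, 14 rose with chromosome medians removed, and the list's median was 0.20 without KO replicate 2.

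TFEB and its relative TFE3 bind the CLEAR motif, so its core was searched on both strands in the 250 bases before each RefSeq start of a gene, where a match at any start counted. The core TCACGTGA, which contains the shorter E-box CACGTG, was found in 1 of the 15 risen lysosomal genes with a promoter in the RefSeq table (GRCm38.p6), in 5 of 29 lysosomal genes overall and in 1.91% of the 9110 genes kept with a promoter. The E-box was found in 2 of the 15, 10 of the 29 and 10.6% of the 9110. The risen gene with the core is Ctsa, a protective lysosomal carboxypeptidase (109 and 104 CPM in WT, 133 and 148 CPM in KO, 0.40). Its upstream bases at chr2:164833720-164833772 on the plus strand are shown with the core in capitals, 5 bases before a RefSeq start that lies inside the gene's span of chr2:164832872-164841032. The RefSeq window at the outer start of Ctsa does not hold the core.
Ctsa upstream: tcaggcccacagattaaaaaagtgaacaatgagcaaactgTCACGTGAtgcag

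Matrix and adhesion genes changed in both directions. Of 28 genes of basement membrane and matrix adhesion 14 rose and 4 fell (median 0.28, and 0.54 without WT replicate 2), and DESeq2 called 13 higher and 3 lower. Agrn, the basement membrane proteoglycan agrin, had 102 and 95.9 CPM in WT and 213 and 207 CPM in KO (1.09, SE 0.10, adjusted p = 2.65e-11, edgeR). Hspg2, the proteoglycan perlecan, had 638 and 574 CPM in WT and 1087 and 990 CPM in KO (0.78). Lama5, a laminin alpha chain, rose by 0.97 and Itgav, an integrin alpha chain, by 1.14. The genes that fell encode the network collagens Col4a1 (238 and 277 CPM in WT, 65.7 and 101 CPM in KO, -1.65) and Col4a2 (-1.30), the laminin chain Lama1 (-0.62) and the collagen-binding protein Sparc (-0.41). Sparc, on chromosome 11, stood at -0.17 with chromosome medians removed (adjusted p = 0.419, edgeR).

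Of 40 genes of the actin cytoskeleton 12 rose and 3 fell. The median of 0.11 turned to -0.00290 when WT replicate 1 was left out and to -0.00441 when KO replicate 2 was. Ezr, which links actin to the membrane, had 283 and 277 CPM in WT and 393 and 413 CPM in KO (0.52), and Tpm1, a tropomyosin, rose by 1.54. Myh9, the heavy chain of non-muscle myosin II, had 544 and 459 CPM in WT and 206 and 167 CPM in KO (-1.43, SE 0.12, adjusted p = 3.92e-13), a difference also called without the block (adjusted p = 0.00952).

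Signs of other cell types moved with these groups. The summed level of 9 fibroblast markers was 57.1 to 119 CPM in WT and 289 to 410 CPM in KO. A large share came from Col1a1, a fibrillar collagen (70.8 and 23.8 CPM in WT, 207 and 285 CPM in KO). Col1a1 did not pass (log2 difference 2.48, SE 0.94, adjusted p = 0.363, edgeR), since WT replicate 2 was the lower WT library and KO replicate 2 the higher KO library. Dcn, like Col1a1 a defining fibroblast marker, had 1 to 4 counts, and Lum was at 0 in all libraries. Col1a2 had 271 and 67 counts in WT and 577 and 1004 in KO, and Col3a1 7 and 2 in WT and 33 and 102 in KO. Thy1 went the other way, with 211 and 211 counts in WT and 138 and 189 in KO. Of the 3 kept among these 9 markers, Thy1 was the only one called, lower in KO. The sum of 9 endoderm markers was 110 to 167 CPM in WT and 33.0 to 33.9 CPM in KO. Most of it came from Cubn (685 and 974 counts in WT, 175 and 148 in KO) and Dab2 (324 and 331, 88 and 129). Of the 3 endoderm markers kept, only Dab2 was called, lower in KO, and Cubn did not pass with the block. Sox17 and Gata6 had at most 39 counts in a library, and Gata4 had 44 and 45 in WT and 23 and 51 in KO. The sum of 7 mesoderm markers was 2.48 to 3.72 CPM in WT and 10.1 to 17.8 CPM in KO. The sum of 7 trophoblast markers was 4.85 to 4.86 CPM in WT and 8.10 to 11.4 CPM in KO (Prl3d1 and Tpbpa at 0), and that of 5 neuroectoderm markers was 93.2 to 148 CPM and 60.8 to 68.1 CPM, with Neurog2 at 0. Nearly all of the neuroectoderm sum was the tubulin gene Tubb3 (772 to 1508 counts in WT and 612 to 649 in KO), and Sox1, Pax6 and Dcx had at most 29 counts in a library. The sum of 10 stem cell markers was 5850 to 7465 CPM in WT and 7292 to 7544 CPM in KO. Their part in the shifts of adhesion, matrix, cytoskeletal and lysosomal genes was not tested.

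Genes of the longer list of fibroblast markers gave 4 higher and 1 lower of 14, among them Fn1, the collagen gene Col5a1 (16.3 and 17.4 CPM in WT, 48.3 and 80.9 CPM in KO, 1.89), the microfibril gene Fbn1 (1.02) and the growth factor receptor gene Pdgfrb (0.90). The median was 0.96 and was 0.66 without KO replicate 2. KO replicate 2 had the higher level for Col5a1, Fbn1 and Pdgfrb.

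Stress response genes rose in part. Of 33 genes of the integrated stress response, which follow the transcription factor ATF4, 11 rose and 2 fell, with 27 positive and a median of 0.33 (0.21 without WT replicate 1). Cth, an enzyme of cysteine synthesis, had 30.5 and 38.3 CPM in WT and 50.8 and 71.0 CPM in KO (0.81, SE 0.13, adjusted p = 5.02e-06, edgeR). Ddit4, an inhibitor of mTOR, had 52.9 and 106 CPM in WT and 105 and 123 CPM in KO (0.59). Its WT and KO ranges overlap, and KO replicate 1 and WT replicate 2 were nearly equal. It stood at 0.51 with chromosome medians removed (adjusted p = 0.0503, edgeR). Stc2, a secreted glycoprotein, rose by 0.998 and Vldlr, a lipoprotein receptor, by 1.37. DESeq2 called 3 higher and the fit without the block none.

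Of 26 targets of p53, the DNA damage response factor, 7 rose and 3 fell. Perp, a desmosomal protein, rose by 1.198, Sesn2, a stress-induced regulator of mTOR, by 0.60 and the cell cycle inhibitor Cdkn1a by 0.57, while the repair gene Xpc on chromosome 6 fell by 0.80, which was -0.42 with chromosome medians removed (adjusted p = 0.0569, edgeR). The median of 0.12 was 0.06 without KO replicate 1 and 0.21 without KO replicate 2, and DESeq2 called none. Of 36 genes of the mTOR pathway 4 rose and 2 fell, with Sesn2, Eif4ebp2 and Rragb, a GTPase of lysosomal amino acid sensing (0.45), among the increases.

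Respiratory chain subunits rose and fell by small amounts. Of 75 kept 15 rose and 6 fell, and 5 of the 6 lie on chromosomes 6, 8 and 11. Ndufb5, a subunit of complex I, had 133 and 161 CPM in WT and 197 and 262 CPM in KO (0.64), and Cycs, cytochrome c, had 177 and 222 CPM in WT and 108 and 153 CPM in KO (-0.62). With chromosome medians removed 8 rose and 1 fell, and Cycs, on chromosome 6, stood at -0.24 (adjusted p = 0.103, edgeR). The median of 0.08 was -0.02 when WT replicate 1 was left out and -0.01 when KO replicate 2 was.

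Of 22 glycolysis genes Eno1 and Pfkl (0.32) rose, and Ldhb (801 and 900 CPM in WT, 500 and 536 CPM in KO, -0.71) and the hexokinase Hk2 (-0.44), both on chromosome 6, fell. Pfkl stood at 0.24 with chromosome medians removed (adjusted p = 0.168, edgeR), Ldhb at -0.33 (0.0728) and Hk2 at -0.06 (0.82). Of 24 cholesterol synthesis genes 5 fell and 2 rose. The enzymes Mvd (-0.71) and Idi1 (-0.52) fell and Srebf2, the transcription factor that activates the pathway, rose (79.0 and 81.3 CPM in WT, 111 and 106 CPM in KO, 0.44). The median of this list, -0.01, turned to 0.03 with upper quartile scaling and was between -0.13 and 0.10 without 1 library.

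Among pluripotency genes most of the formative list rose, while the core and naive list was mixed. Of 22 genes of the formative and primed states, through which stem cells leave the naive state, 16 rose and 3 fell, with a median of 0.79 (0.59 and 0.96 in the pairs, 1.21 without WT replicate 1, 0.36 without WT replicate 2 and 0.46 when KO replicate 1 was left out). Without the block 5 rose. Pim2, a serine/threonine kinase, had 22.0 and 12.5 CPM in WT and 73.0 and 61.4 CPM in KO (1.98). Cldn6, a tight junction protein of early epiblast, had 37.5 and 37.7 CPM in WT and 99.9 and 82.1 CPM in KO (1.27). Grhl2, an epithelial transcription factor, rose by 1.28 and Zic2, a zinc finger factor, by 0.99. Zic2 had 15.3 and 8.51 CPM in WT and 26.8 and 19.7 CPM in KO, and its adjusted p was 1.70e-05 with and 0.129 without the block (edgeR). DESeq2 called 8 of the list higher and 2 lower.

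Of 41 genes of core and naive pluripotency 12 rose and 8 fell. The median was 0.07 (0.23 in replicate 1 and -0.05 in replicate 2) and was between -0.03 and 0.21 without 1 library. Of the 8 that fell, 5 lie on chromosomes 6, 8 and 11, and 3 of 33 members elsewhere fell (9.09%, against 6.01% of all genes elsewhere). With chromosome medians removed 11 rose and 4 fell. The difference between this list and the formative list was not tested. Tfcp2l1, a naive state transcription factor, had 69.1 and 69.6 CPM in WT and 131 and 106 CPM in KO (0.76), and Fgf4, the growth factor that stem cells secrete, had 53.5 and 62.4 CPM in WT and 91.9 and 102 CPM in KO (0.75). Spp1, the secreted protein osteopontin, rose by 0.74. Zfp42, the naive marker Rex1 on chromosome 8, had 1082 and 1088 CPM in WT and 739 and 719 CPM in KO (-0.57, SE 0.14, adjusted p = 0.00171, edgeR). Its replicates agreed closely, and it stood at -0.34 (adjusted p = 0.0726) with chromosome medians removed. Neither Sox2 nor Nanog passed. Sox2 had 287 and 302 CPM in WT and 339 and 272 CPM in KO, and Nanog 282 and 440 CPM in WT and 332 and 402 CPM in KO, and for each the pairs moved in opposite directions. Nanog lies on chromosome 6 and stood at 0.43 (adjusted p = 0.00887, edgeR) relative to that chromosome's median.

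DNA methylation enzymes split. Dnmt3b, a de novo methyltransferase, had 347 and 269 CPM in WT and 434 and 466 CPM in KO (0.56), while the other de novo methyltransferase Dnmt3a (240 and 169 CPM in WT, 165 and 113 CPM in KO, -0.56) and the cofactor Dnmt3l (-0.57) fell. Tet2, which oxidises methylcytosine, rose by 0.73. In all, 2 of 16 rose and 3 fell. Of 28 Polycomb subunits, which repress developmental genes, 6 fell and 3 rose. Suz12, a core subunit of Polycomb complex 2, had 146 and 152 CPM in WT and 86.4 and 93.3 CPM in KO (-0.73). Of the 6, 5 lie on chromosomes 6, 8 and 11, and with chromosome medians removed 2 fell and 1 rose.

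Imprinted genes, expressed from 1 parental copy, rose more often than they fell. Of 25 kept 14 rose and 1 fell, with a median of 0.43 (0.53 and 0.46 in the pairs). The 14 include the noncoding RNAs Kcnq1ot1 (1.09), Rian (1.03) and Meg3 (0.69), whose reads may not come from translation. Gnas, a G protein subunit, had 81.2 and 87.8 CPM in WT and 141 and 153 CPM in KO (0.79). Antisense transcripts lie over part of its exons. Igf2r, the receptor that clears IGF2, had 336 and 432 CPM in WT and 515 and 667 CPM in KO (0.62, SE 0.13, adjusted p = 0.000194 with and 0.136 without the block, edgeR). Igf2 rose from 1.91 and 1.18 to 12.4 and 30.4 CPM and overlaps a predicted gene of the same strand over 68.5% of its exons. Cdkn1c, a cell cycle inhibitor, fell by 0.47. DESeq2 called 6 higher.

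Of 18 germline genes 8 fell and 1 rose (median -0.33, -0.18 without WT replicate 2, -0.62 without WT replicate 1 and -0.09 when KO replicate 1 was left out), with 4 of the 8 on chromosomes 6, 8 and 11. Dppa3 and Tex19.1, a repressor of transposons (75.04 and 69.3 CPM in WT, 37.0 and 41.0 CPM in KO, -0.89), fell, and Rpl10l, a ribosomal protein retrogene of the testis, rose by 0.87. DESeq2 called 2 lower.

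Lineage markers went in several directions. Of 17 endoderm markers 9 fell and 4 rose, with a median of -0.46 (-0.70 and -0.34 in the pairs, and -0.86 without KO replicate 2). Col4a1, Col4a2, Lama1 and Sparc, which fell, and Lamc1, which rose, are also counted in the list of basement membrane and matrix adhesion. The endocytic adaptor Dab2 had 30.9 and 39.1 CPM in WT and 9.25 and 11.7 CPM in KO (-1.74), and Apoe, the lipid carrier, had 406 and 472 CPM in WT and 1243 and 1193 CPM in KO (1.47). Of 13 trophoblast markers 4 rose, the simple keratins Krt8 (2.004), Krt18 (1.86) and Krt19 (1.26) and the T-box factor Eomes (1.55), and 3 fell, all Rhox genes of the X chromosome. Of 10 neuroectoderm markers 5 rose and 1 fell. Sox11, a neural transcription factor, rose by 1.36 and Ncam1, a neural adhesion molecule, by 0.87, and the neuronal tubulin Tubb3 fell by 0.90. The neuroectoderm median of 0.51 was 0.29 without KO replicate 1. Eomes was the only one of 6 mesoderm markers kept that was called.

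Of 60 replication-dependent histone genes 9 rose and 5 fell. Hist1h3b had 138 and 71.9 CPM in WT and 200 and 126 CPM in KO (0.67) and Hist1h2ai 373 and 320 CPM in WT and 630 and 524 CPM in KO (0.73), while Hist4h4 on chromosome 6 fell by 0.62, which was -0.24 with chromosome medians removed (adjusted p = 0.164, edgeR). Near-identical copies make all of these uncertain, and the list's median was 0.23 in replicate 1 and -0.02 in replicate 2. Of 37 SR proteins and hnRNPs, which direct splicing, 4 fell and 2 rose. Hnrnpdl fell by 0.43, Hnrnpa0 rose by 0.44, and Tra2a on chromosome 6 fell by 0.37, a difference that was 0.012 with chromosome medians removed.

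Of 23 writers, erasers and readers of N6-methyladenosine, Mettl16, which methylates U6 snRNA, fell (102 and 119 CPM in WT, 67.1 and 79.9 CPM in KO, -0.59), as did Mettl5 and Hnrnpa2b1, and the reader Igf2bp3 rose by 0.47. Igf2bp3 shares 35.2% of its exon length with Malsu1 on the other strand. Fbxw7, which selects MYC and other proteins for ubiquitination, stood at 8.49 and 8.99 CPM in WT and 9.78 and 10.8 CPM in KO and did not pass (log2 difference 0.23, adjusted p = 0.444, edgeR). Of 19 genes of FBXW7 and its substrates 4 rose and 3 fell. The receptor Notch1 had 75.2 and 64.4 CPM in WT and 140 and 102 CPM in KO (0.78), the transcription factor Jun rose by 1.14, and Skp1a, which holds FBXW7 in its ligase, fell (749 and 1072 CPM in WT, 442 and 667 CPM in KO, -0.72), as did Myc.

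The largest changes did not need the pairing. They were on genes with a mean of 5.67 to 23.9 CPM, where the median of all genes kept was 19.4 CPM. Igf2, Enpp2, which makes lysophosphatidic acid (3.21), Arxes1 (3.20), Fndc3c1 (3.11) and the guanylate-binding protein gene Gbp2b (2.70) had the largest increases of the called genes whose counts averaged 50 or more. After Mettl5, Myom2 of muscle (-2.19), Srgn, which encodes the core of a granule proteoglycan (-2.08), the metallothionein Mt3 (-1.96) and the endothelial receptor Robo4 (-1.75) fell most. All were also called without the block, with adjusted p between 0.00102 and 0.0348 (edgeR). The rule of 10 counts in every library removes genes that were nearly off in 1 genotype. It left out 26 genes with a KO mean of at least 50 counts and 2 with a WT mean of at least 50. The 132 genes whose lowest library held exactly 10 counts had a median of 1.59 CPM, and the 128 just outside, at 9 counts, 1.47 CPM.

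The RNA-seq libraries of the same genotypes are shallow, with 152166 to 219527 counts, and 1243 genes reached 10 counts in all 4. In them 100 genes were called with the block (8.05%) and 126 without it. Of these genes, 778 were also kept in footprints. The 78 with higher footprints had a median RNA-seq log2 difference of 0.10, with 45 positive, and in RNA-seq 2 of them were called higher and 6 lower. The 82 with lower footprints had a median of -0.10, with 35 positive, and 1 was called higher and 3 lower. The 618 not called in footprints had a median of 0.03, with 324 positive, and in RNA-seq 24 were called higher and 23 lower. The median of the lowest RNA-seq count over the 778 genes was 24, so most shifts under 1.5-fold are near the counting error of these libraries.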

How the data were processed

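Expected counts per gene were deposited by the authors with TPM and FPKM from RSEM after Bowtie2 2.3.4.3 alignment to mm10, per the submitters' processing notes and the file headers. Expected counts are estimated, so reads shared by related genes are divided by model. They were rounded to whole numbers. The deposited TPM values were used, as log2(TPM + 1), in 1 alternative only, and FPKM was not used. No source used here gives the strand setting or trimming.

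Genes with at least 10 counts in all 4 Ribo-seq libraries were kept (99.7% of counts). Rn45s, the rRNA precursor, held 7.58% to 15.2% of counts per library. edgeR 4.0.16 (R 4.3.3) was fitted with TMM scaling, robust quasi-likelihood and the terms replicate tag and genotype. A gene was called at a Benjamini-Hochberg adjusted p of 0.05 over all genes kept. SE is the log2 fold change divided by the square root of F. Differences within pairs are of log2 CPM with a prior count of 2. DESeq2 1.42.0 and limma 3.58.1 were alternatives. The script was tested on simulated data. In the chromosome alternative, each chromosome's median log2 fold change was removed before testing.

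The tags come from the deposited names. With 2 pairs, a correlation of 0.47 between the deviations of same-numbered libraries does not establish that the tags pair the samples, and the block was used because the comparison is defined by it.

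Members, gene lists and tests were chosen with earlier results of these data known. The rule for named genes took Mettl5, the 5 largest changes in each direction with a mean count of at least 50, and up to 3 called genes per list. It also drew on abundant genes called only with the block, with less than a 2-fold change and the same sign in both pairs. From these it took the 8 in each direction with the smallest p and the 6 in each direction with the highest level. Other named list members, Pou5f1, Sox2, Nanog, Col1a1, Trmt112 and Fbxw7 among them, were chosen after their values were seen. Symbols were matched to the mm10 annotation for 23806 of 23845 genes, and promoters are from RefSeq.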

Additional observations from a re-analysis of the deposited data

How the results depend on the processing

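The count of 2549 genes called depended on the block and the tool. With no replicate block 231 were called, and the small shifts among them went from 2138 to 46. DESeq2 called 601, of which 402 were small, and gained 284 with the block. Testing against a 1.2-fold change left 1169, of which 775 were small. Without 1 library, and so without the block, 186 to 428 genes were called, 8 to 132 of them small. RLE and upper quartile scaling, limma-voom, TPM, other filters, a prior that is not robust and the removal of Rn45s or of chromosome medians gave 1915 to 2960. Higher calls made up 52.5% of the 2549, 58.3% with upper quartile scaling and 45.4% on TPM. All 2549 genes kept their sign in each of these except chromosome medians removed, where 2536 did, the leave-outs, where 2530 to 2540 did, and the filter on a mean count of 50, where 2289 were tested with the same sign. The log2 fold change of Hist1h4j reversed without WT replicate 2 (-0.28) and without KO replicate 1 (-0.96), with values from -0.96 to 2.5967 over the leave-outs, and Tra2a with chromosome medians removed (0.012). The cause was not tested. Depth limits the lowest quintile of CPM, where the smallest shift called was 0.69 log2 units against 0.27 in the highest.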
